A study of Rattus norvegicus with 8 samples.

Results

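The insulin-like growth factor (IGF) system was followed in glomerular RNA through 10 genes, namely the ligand Igf1, the receptors Igf1r and Igf2r, and the binding proteins Igfbp1 to Igfbp7. The genes were taken by symbol from the annotation of the array, which assigned 20 of the 31042 tested probe sets to them, out of 14217 genes in all. A probe set is a group of short oligonucleotides read as 1 value, and for each gene the main probe set was chosen by its highest mean over all 8 arrays, a choice that uses no comparison between groups. Igfbp5 had 5 probe sets, Igf1 had 3, and Igf1r, Igf2r, Igfbp3 and Igfbp6 had 2 each.

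Glomeruli, the filtering units of the kidney, were isolated magnetically from the left kidney of male rats of 2 inbred strains kept on a low-salt diet. Dahl SS rats (Dahl) are salt-sensitive and become proteinuric without further treatment, whereas spontaneously hypertensive rats (SHR) do not become proteinuric at these ages. Each strain was sampled at 4 and 6 weeks of age. Each of the 4 groups held 2 biological replicates (biol rep 1 and 2), each on an array of its own. The sample titles do not say whether a replicate is 1 rat or a pool, and each is called a rat here. Both strains are prone to hypertension, so SHR rats are not a healthy control, and the strains differ throughout the genome, so strain cannot be told apart from any single gene variant. The sources used here do not give feeding state or time of day at tissue collection.

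IGF1 binds the receptor tyrosine kinase IGF1R, which signals through insulin receptor substrates to PI3 kinase, Akt and MAP kinases. IGF2R, the mannose 6-phosphate receptor, has no such kinase and carries IGF2 and lysosomal enzymes to the lysosome. The binding proteins hold IGFs in blood and tissue and keep them from, or deliver them to, the receptor. Insulin represses the Igfbp1 gene by removing FoxO transcription factors from the nucleus, and in the normal kidney IGF1 raises renal blood flow and glomerular filtration.

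The values are on a log2 scale, so that a difference of 1 is a doubling, and they compare rats for the same probe set, not 1 gene with another. Array medians lay between 4.11 and 4.16, and the correlation of the 2 arrays within a group was 0.989 to 0.997 over all probe sets. Podocyte markers were present in every rat, the 8 measured ones at 7.92 to 12.65. Rat 2 of the Dahl 6 weeks group stood apart with a proximal tubule marker score of -1.59, against -0.09 to 0.87 in the other rats. The SHR 4 weeks rats stood apart with leukocyte marker scores of -1.40 and -1.77, against -0.02 to 1.05. A marker score is the median deviation of a list's genes from their own means over the 8 arrays. In RNA of whole glomeruli, fewer cells of a type and less RNA per cell cannot be told apart.

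The SHR rats aged 4 weeks had a different IGF profile from the other 3 groups. They held the lowest values of Igf1, Igfbp2 and Igfbp7 and the highest values of Igf1r, Igfbp1, Igfbp3 and Igfbp4, with both rats outside the range of the other 6 in each of these genes. By 6 weeks the SHR values of Igf1, Igfbp1 and Igfbp7 lay close to those of the Dahl rats, in which no member passed the test between 4 and 6 weeks. Igfbp5 had another pattern, with every Dahl rat above every SHR rat.

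**Figure D1:**
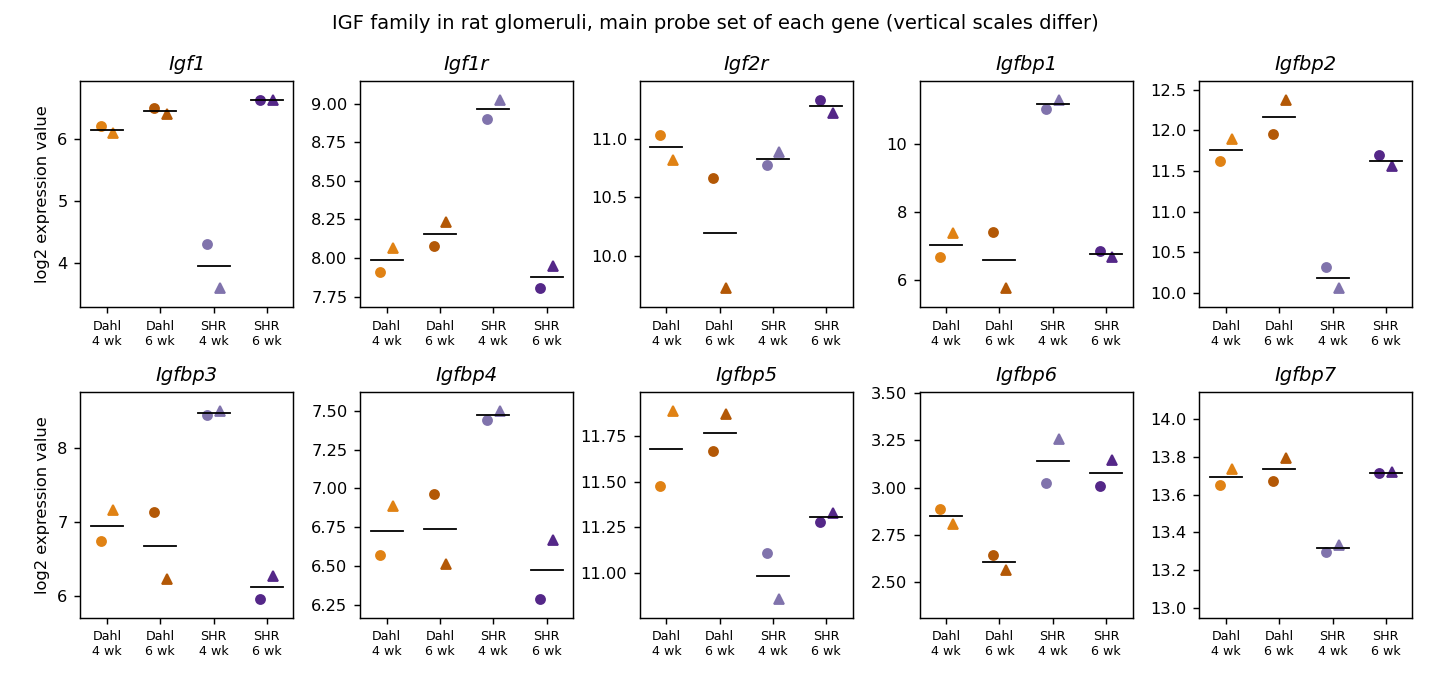
Log2 expression value of the main probe set of each IGF family gene (vertical axes, different scale per gene) in the 4 groups (horizontal axes). Circles are replicate 1, triangles replicate 2 and black lines group means. The SHR 4 weeks rats lie outside the range of the other 6 rats for Igf1, Igf1r, Igfbp1 to Igfbp5 and Igfbp7. For Igfbp5 every Dahl rat also lies above every SHR rat.

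Igf1 encodes the ligand, which the liver secretes under growth hormone and which many tissues also make locally. Its main probe set read 6.20 and 6.10 in the Dahl rats at 4 weeks, 6.49 and 6.41 in those at 6 weeks, 4.30 and 3.59 in the SHR rats at 4 weeks, and 6.63 and 6.63 in those at 6 weeks. Only the young SHR rats were low, and the SHR rats at 6 weeks were slightly above every Dahl rat. At 4 weeks Dahl exceeded SHR by 2.20 ± 0.23 (SE), with an adjusted p of 0.0128 (limma). The young SHR values lay near the array medians of 4.12 and 4.11, where levels are uncertain, so the size of this difference is uncertain too. From 4 to 6 weeks Igf1 rose in SHR by 2.69 ± 0.23 (adjusted p = 0.0167, limma), against 0.30 ± 0.23 in Dahl (adjusted p = 0.822). At 6 weeks the strains differed by -0.18 with a 95% interval of -0.78 to 0.42.

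The 3 probe sets of Igf1 did not read alike. Probe set 1388469_at had the same pattern as the main one, at 3.03 and 3.38 in the young SHR rats and 5.03 to 6.01 in the others. Its young SHR values lay below the array medians of 4.12 and 4.11, so the sizes of its differences are uncertain. Its change of the strain difference between the ages, -2.31 ± 0.20, passed the test (adjusted p = 0.0345, limma), whereas that of the main probe set, -2.38 ± 0.33, did not (adjusted p = 0.0836). Probe set 1382599_at stayed between 4.88 and 5.71 in all rats and passed in no comparison. The call of Igf1 at 4 weeks was lost without rat 2 of the Dahl 4 weeks group (adjusted p = 0.0612), and that of the rise in SHR without either SHR 6 weeks rat (adjusted p up to 0.101), with the rise between 2.33 and 3.04 over all 8 omissions.

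The genes closest to Igf1 in pattern, by the root mean square difference of their deviations over the 8 arrays, were Tyrobp at 0.265, Fyb1 at 0.274 and Pilra at 0.284. Tyrobp is a signaling adaptor of myeloid and natural killer cells, Fyb1 an adaptor of T cells and myeloid cells, and Pilra an inhibitory receptor of myeloid cells. In its median the fixed leukocyte list moved with Igf1 as well. In SHR, 5 of its 9 markers rose from 4 to 6 weeks and 0 fell, with a median difference of 2.01, where 2.35% of all genes rose. At 4 weeks 6 were higher and 1 lower in Dahl, against 7.88% and 6.06% of all genes. At 6 weeks 0 were higher and 1 lower in Dahl. Csf1r, the macrophage growth factor receptor, read 3.52 and 3.32 in the young SHR rats and 5.30 to 6.15 in the others. The integrin Itgam lay between 2.49 and 2.63 in every rat and the T cell gene Cd3e between 3.22 and 3.78. The leukocyte score was 0.43 and 0.29 in the SHR rats at 6 weeks, -0.02 and 0.01 in the Dahl rats at 4 weeks and 0.58 and 1.05 in those at 6 weeks. The part of leukocyte RNA in the Igf1 result was not tested.

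Igf1r encodes the signaling receptor. Its main probe set read 7.91 and 8.06 in the Dahl rats at 4 weeks, 8.08 and 8.23 at 6 weeks, 8.90 and 9.03 in the SHR rats at 4 weeks, and 7.80 and 7.95 at 6 weeks. The young SHR rats were the highest, in the opposite sense to the ligand. Dahl was lower than SHR at 4 weeks by 0.98 on the log2 scale (SE 0.09, adjusted p = 0.0105, limma), which is 1.97-fold higher in SHR, and this call held in all 8 fits that left out 1 rat. In SHR the receptor fell by 1.09 from 4 to 6 weeks (SE 0.09, adjusted p = 0.0167, limma), a call lost without rat 2 of the SHR 4 weeks group or either SHR 6 weeks rat (adjusted p up to 0.0933). The second probe set moved alike, by -1.01 and -0.90 in these 2 comparisons, both past the threshold.

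Igf1r was the only member whose strain difference changed with age past the threshold at its main probe set. The difference was -0.98 at 4 weeks and 0.28 at 6 weeks, a change of 1.26 ± 0.13 (adjusted p = 0.047, limma). At the second probe set the change was 1.04 ± 0.16 and did not pass (adjusted p = 0.0997), with a difference of 0.03 at 6 weeks. Of all 14217 genes, 0.26% passed with a positive and 0.45% with a negative change of this kind. The call lay close to the threshold and was lost in 7 of 8 fits that left out 1 rat, with the exception of rat 1 of the Dahl 6 weeks group, at adjusted p values up to 0.153 and a change between 1.18 and 1.34.

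Igf2r, the endosomal receptor, showed no called difference with all rats in the fit. It read 11.03 and 10.82 in the Dahl rats at 4 weeks, 10.67 and 9.72 at 6 weeks, 10.77 and 10.88 in the SHR rats at 4 weeks, and 11.33 and 11.22 at 6 weeks. The 2 Dahl rats at 6 weeks were the lowest of all and were nearly 1 unit apart, the lower being the rat with the low proximal tubule score. At 6 weeks Dahl minus SHR was -1.08 with an adjusted p of 0.11 (limma). The difference was -0.61 without the rat of low tubule score and -1.55 without the other Dahl rat of that age. The second probe set gave -1.24 (adjusted p = 0.113).

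Igfbp1 had the largest differences of the family. The encoded protein is a small IGF carrier made mainly by the liver, and its gene is a standard example of repression by insulin. It read 6.68 and 7.38 in the Dahl rats at 4 weeks, 7.42 and 5.77 at 6 weeks, 11.02 and 11.28 in the SHR rats at 4 weeks, and 6.87 and 6.68 at 6 weeks. Both young SHR rats lay more than 3 units above every other rat, and the remaining 3 groups overlapped. At 4 weeks the SHR level was 17.4-fold that of Dahl (log2 difference -4.12 ± 0.58, adjusted p = 0.0225, limma). From 4 to 6 weeks Igfbp1 fell in SHR by 4.38 (SE 0.58, adjusted p = 0.0378, limma), or 20.8-fold, against -0.44 ± 0.58 in Dahl (adjusted p = 0.955).

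Both calls of Igfbp1 were lost without any 1 of the Dahl 4 weeks, SHR 4 weeks or SHR 6 weeks rats, at adjusted p values up to 0.0908 and 0.167. The differences themselves stayed between -4.47 and -3.77 at 4 weeks and between -4.50 and -4.25 in SHR. At 6 weeks the strains differed by -0.18 with a 95% interval of -1.68 to 1.32, and by 0.65 without rat 2 of the Dahl 6 weeks group, the lowest rat. The change of the strain difference with age, 3.94 ± 0.82, did not pass over all probe sets (adjusted p = 0.17, limma).

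The 3 genes nearest to Igfbp1 in pattern were Bhmt at a root mean square difference of 0.369, Vnn1 at 0.428 and Prodh at 0.504, where Igfbp1 itself varied with an SD of 1.94 around its mean. Bhmt encodes betaine-homocysteine methyltransferase, Vnn1 a pantetheinase and Prodh proline dehydrogenase, enzymes known from liver and kidney tubule. Bhmt read 7.13 and 7.71 in the young SHR rats and 2.35 to 3.52 in the other 6. The proximal tubule score was 0.63 and 0.87 in the SHR rats at 4 weeks and 0.22 and 0.41 at 6 weeks, and 0 of its 19 measured markers passed between these ages. The median difference of the list there was -0.51, and single markers moved more, such as Cyp2e1 with -2.22 ± 0.71 (adjusted p = 0.241, limma). Of the 10 distal nephron markers 1 fell between these ages, the sodium channel subunit Scnn1a (-1.95 ± 0.15, adjusted p = 0.013). The part of tubule RNA in the Igfbp1 result was not tested.

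The 250 bases before the start of Igfbp1 hold the letters CAAAACA, the core of the insulin response sequence known from this promoter, and those of Igf1 hold the same letters although Igf1 moved in the opposite direction. Both are shown for that contrast, with this core in capitals, as given by RefSeq for the assembly GRCr8 at chr14:86261027-86261276 (plus strand) for Igfbp1 and chr7:24172282-24172531 (plus strand) for Igf1.
Igfbp1: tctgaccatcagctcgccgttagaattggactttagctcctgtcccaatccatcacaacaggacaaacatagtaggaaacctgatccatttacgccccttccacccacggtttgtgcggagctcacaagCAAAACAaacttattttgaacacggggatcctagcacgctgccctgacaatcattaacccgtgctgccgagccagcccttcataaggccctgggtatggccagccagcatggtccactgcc
Igf1: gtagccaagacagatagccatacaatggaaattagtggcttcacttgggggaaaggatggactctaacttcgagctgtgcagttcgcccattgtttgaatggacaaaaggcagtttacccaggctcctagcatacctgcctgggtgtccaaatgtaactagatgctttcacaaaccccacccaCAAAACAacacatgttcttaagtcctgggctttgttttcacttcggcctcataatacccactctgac
The core began 121 bases before the start of Igfbp1 and 67 bases before that of Igf1. All 10 members had a promoter in the table, and 2 of them held the core on either strand, as did 5.46% of 33469 promoters of the same length. The FoxO core GTAAACA was found in 1 member, Igfbp6, and in 3.21% of all promoters. The letters GTTAAT, a part of the site of the liver and kidney factor HNF1, were found in Igfbp1 alone among the members and in 6.45% of all. A match in these letters describes the sequence and is not a measured binding site.

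Igfbp3 carries most of the IGF in blood, together with the acid-labile subunit. Its main probe set read 6.74 and 7.15 in the Dahl rats at 4 weeks, 7.13 and 6.23 at 6 weeks, 8.44 and 8.50 in the SHR rats at 4 weeks, and 5.96 and 6.28 at 6 weeks. The young SHR rats were the highest by more than 1 unit, and the older SHR rats were among the lowest. In SHR it fell by 2.35 (SE 0.33, adjusted p = 0.0436, limma), or 5.09-fold, a call lost without any 1 of the Dahl 4 weeks, SHR 4 weeks or SHR 6 weeks rats (adjusted p up to 0.192). At 4 weeks Dahl minus SHR was -1.52 ± 0.33, at an adjusted p of 0.0502, just outside the threshold. The second probe set gave -1.38 ± 0.20 (adjusted p = 0.0228) at 4 weeks and -2.29 ± 0.20 (adjusted p = 0.0165) in SHR with age.

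In the RefSeq gene table Igfbp1 and Igfbp3 are direct neighbours on chromosome 14, and Igfbp2 and Igfbp5 on chromosome 9. At their main probe sets the first pair was highest in the young SHR rats and the second lowest in them, whereas 1396152_s_at and 1397830_at of Igfbp5 had their lowest group mean in the older SHR rats.

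Igfbp2 is a matrix-associated carrier that is abundant in fetal tissue. It read 11.63 and 11.90 in the Dahl rats at 4 weeks, 11.96 and 12.37 at 6 weeks, 10.32 and 10.06 in the SHR rats at 4 weeks, and 11.70 and 11.56 at 6 weeks. The young SHR rats were lowest and the Dahl rats at 6 weeks highest. At 4 weeks Dahl exceeded SHR by 1.57 ± 0.18 (2.98-fold, adjusted p = 0.0158, limma), a call lost without rat 2 of the Dahl 4 weeks or of the SHR 4 weeks group (adjusted p up to 0.0704). With age it rose in SHR by 1.44 ± 0.18 (adjusted p = 0.0356, limma), a call lost without any 1 of the Dahl 4 weeks, SHR 4 weeks or SHR 6 weeks rats (adjusted p up to 0.171). The difference over both ages, 1.06 ± 0.13 (adjusted p = 0.0113), held in all 8 fits that left out 1 rat, and at 6 weeks alone it was 0.54 ± 0.18 (adjusted p = 0.129).

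Likeness was also computed for Igfbp2. Tnnc1, the troponin C of slow and cardiac muscle, lay at 0.0783, Tpd52l1, a member of the D52 family of vesicle proteins, at 0.0933 and the interferon-induced membrane protein gene Ifitm1 at 0.0945, while Igfbp2 varied with an SD of 0.76. Tnnc1 read 10.58 and 10.30 in the young SHR rats and 11.92 to 12.62 in the others.

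**Figure D2:**
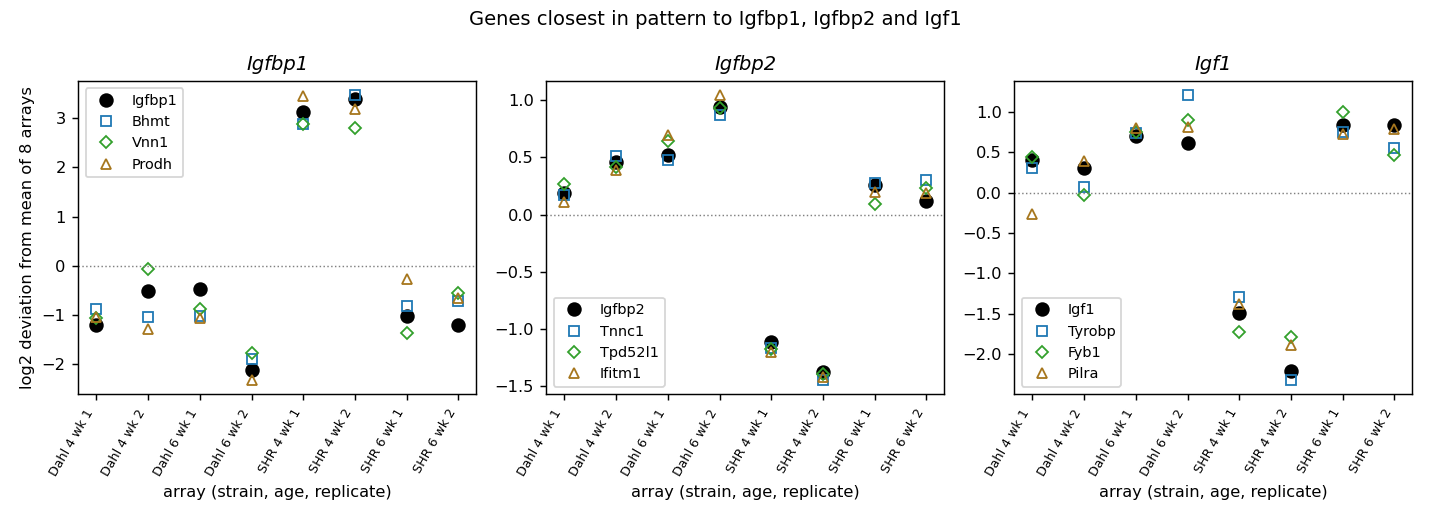
Deviation of log2 expression from the mean of the 8 arrays (vertical axes, different scale per panel) for each array (horizontal axes), for Igfbp1, Igfbp2 and Igf1 (black circles) and the 3 genes closest to each in pattern (open symbols). The SHR 4 weeks arrays set the pattern in all 3 panels, upward for Igfbp1 and its companions and downward for the other 2 sets.

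Igfbp4, which restrains IGF action until the protease PAPPA cuts it, read 7.44 and 7.50 in the young SHR rats and 6.29 to 6.96 in the others. The young SHR rats did not overlap with the others, and yet neither comparison with them passed. Dahl minus SHR at 4 weeks was -0.74 ± 0.22 (adjusted p = 0.088, limma) and 6 minus 4 weeks in SHR was -0.99 ± 0.22 (adjusted p = 0.109).

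Igfbp7 binds IGFs weakly and is a secreted protein of vessel walls. Its values were 13.65 and 13.74 in the Dahl rats at 4 weeks, 13.68 and 13.80 at 6 weeks, 13.30 and 13.34 in the SHR rats at 4 weeks, and 13.72 and 13.72 at 6 weeks. The shift of the young SHR rats was small but larger than the spread within groups. Dahl exceeded SHR at 4 weeks by 0.38 ± 0.05 (1.30-fold, adjusted p = 0.0224, limma), and SHR rose with age by 0.40 ± 0.05 (adjusted p = 0.0373). The first call was lost without rat 2 of the Dahl 4 weeks group or any 1 of the SHR rats (adjusted p up to 0.089), and the second without any 1 of the Dahl 4 weeks, SHR 4 weeks or SHR 6 weeks rats (up to 0.174).

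Igfbp5, a carrier that binds matrix and is made by smooth muscle and mesangial cells in culture, separated the strains regardless of age. Its main probe set read 11.47 and 11.89 in the Dahl rats at 4 weeks, 11.67 and 11.87 at 6 weeks, 11.11 and 10.85 in the SHR rats at 4 weeks, and 11.28 and 11.33 at 6 weeks. Every Dahl rat was above every SHR rat. The difference was 0.70 ± 0.17 at 4 weeks (adjusted p = 0.0635, limma) and 0.47 ± 0.17 at 6 weeks (adjusted p = 0.138), neither past the threshold alone. Over both ages it was 0.58 ± 0.12 (1.50-fold, adjusted p = 0.0294, limma), and the exact two-sided permutation test of 4 against 4 rats gave p = 0.0286, the smallest it can give. The call was lost in 5 of 8 fits that left out 1 rat, namely rat 2 of the Dahl 4 weeks, Dahl 6 weeks or SHR 4 weeks group or either SHR 6 weeks rat (adjusted p up to 0.089), with the difference between 0.48 and 0.69.

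Of the other 4 probe sets of Igfbp5, 3 gave larger differences over both ages. These were 1.27 ± 0.11 for 1387348_at, 1.97 ± 0.21 for 1396152_s_at and 1.44 ± 0.26 for 1397830_at, with adjusted p values of 0.00755, 0.00907 and 0.0228 (limma). Probe set 1396152_s_at read 6.88 to 7.66 in Dahl and 5.11 to 5.74 in SHR, and was the only probe set of any member to pass at 6 weeks alone (2.16 ± 0.30, adjusted p = 0.04). The fifth, 1387347_at, read 3.43 to 4.34 and did not separate the strains (-0.06 ± 0.21, adjusted p = 0.832). Mesangial and smooth muscle markers moved with Igfbp5, with 7 of 9 higher in Dahl over both ages, 0 lower and a median of 0.82. Of all genes, 13.2% were higher. Their score was 0.32 to 0.45 in Dahl and -0.51 to -0.18 in SHR. This was not particular to these cells. Of 8 endothelial markers 4 were higher and 0 lower (median 0.44), and of 8 podocyte markers 3 were higher and 0 lower (median 0.36). The endothelial score was -0.05 to 0.61 in Dahl and -0.42 to -0.11 in SHR. The part of any of these cells in the Igfbp5 result was not tested.

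**Figure D3:**
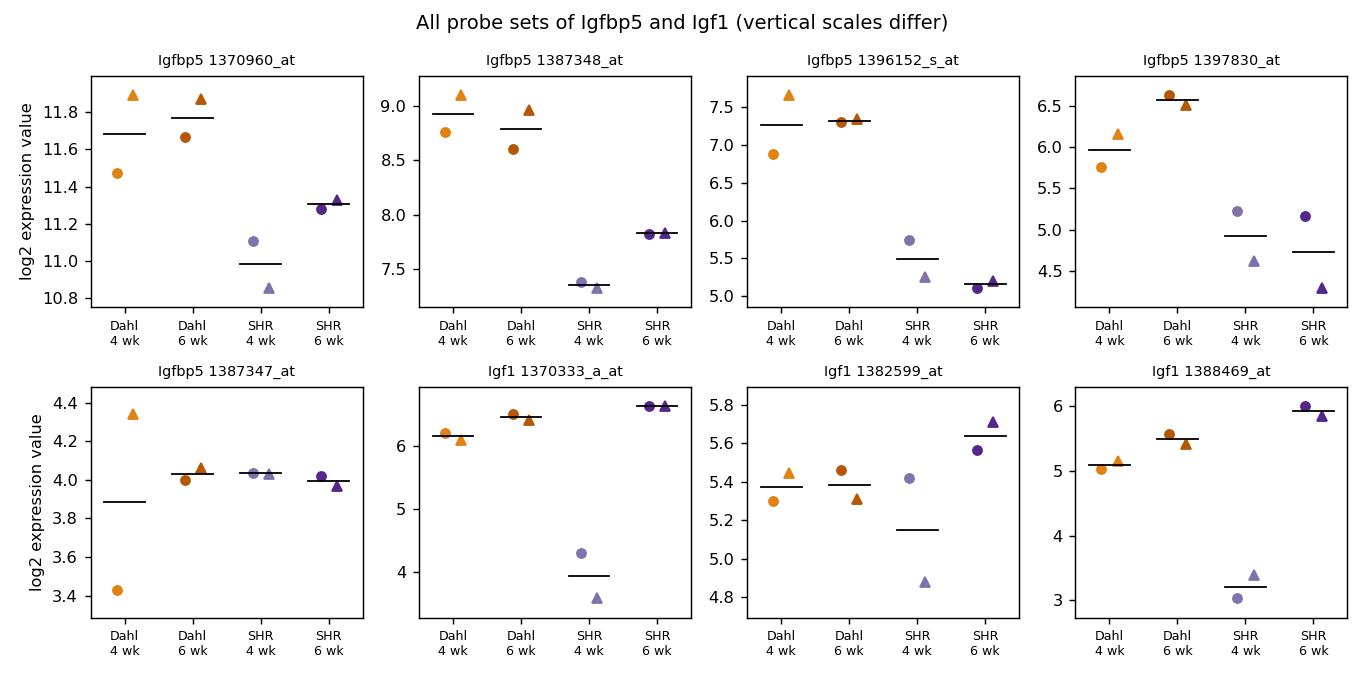
Log2 expression value (vertical axes, different scale per panel) of the 5 probe sets of Igfbp5 and the 3 of Igf1 in the 4 groups (horizontal axes). Circles are replicate 1, triangles replicate 2 and black lines group means. For Igfbp5, 4 of 5 probe sets place all Dahl rats above all SHR rats, and for Igf1, 2 of 3 place the young SHR rats far below the rest.

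Igfbp6, a carrier that prefers IGF2, read 2.56 to 2.89 in Dahl and 3.01 to 3.26 in SHR at its main probe set, below the median of every array. The strains did not overlap, and the difference of -0.38 ± 0.07 passed (adjusted p = 0.022, limma). The call was lost without rat 2 of the Dahl 4 weeks or Dahl 6 weeks group or either SHR 6 weeks rat (adjusted p up to 0.0723). The second probe set differed by only -0.10. At values this low a level of expression cannot be read from the arrays.

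Over both ages, 4 of 10 members were higher in Dahl (Igf1, Igfbp2, Igfbp5 and Igfbp7) and 3 lower (Igf1r, Igfbp1 and Igfbp6), where 13.2% of all genes were called higher and 21.2% lower. The ranges of the strains overlapped in all of these but Igfbp5 and Igfbp6, and at 6 weeks Igf1, Igf1r, Igfbp1 and Igfbp7 differed by 0.28 or less in either direction. In the exact permutation test over both ages, Igfbp5 and the dim Igfbp6 gave p = 0.0286. The same test gave 0.0571 for Igfbp2, 0.229 for Igfbp7, 0.257 for Igfbp1, 0.4 for Igf1r and 0.429 for Igf1. Of the 7, Igfbp2 alone passed in all 8 fits that left out 1 rat. With the proximal tubule score as a covariate, 0 of 10 passed over both ages. That fit called only 170 of all genes, against 4900 without the covariate, so the loss of calls was not particular to the members. The part of tubule RNA in the strain differences was not tested. At 4 weeks 3 members were called higher and 2 lower, against 7.88% and 6.06% of all genes. In SHR with age, 3 rose and 3 fell, against 2.35% and 1.07% of all genes. These 2 comparisons share the SHR 4 weeks rats and are not independent of each other. At 6 weeks limma called 0 of 10, where 1.62% of genes were higher and 1.62% lower, although 5 members had an unadjusted p under 0.05. In Dahl with age limma called 0 of 10, with 0 at an unadjusted p under 0.05, where 0.0422% of genes rose and 0.0563% fell.

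**Figure D4:**
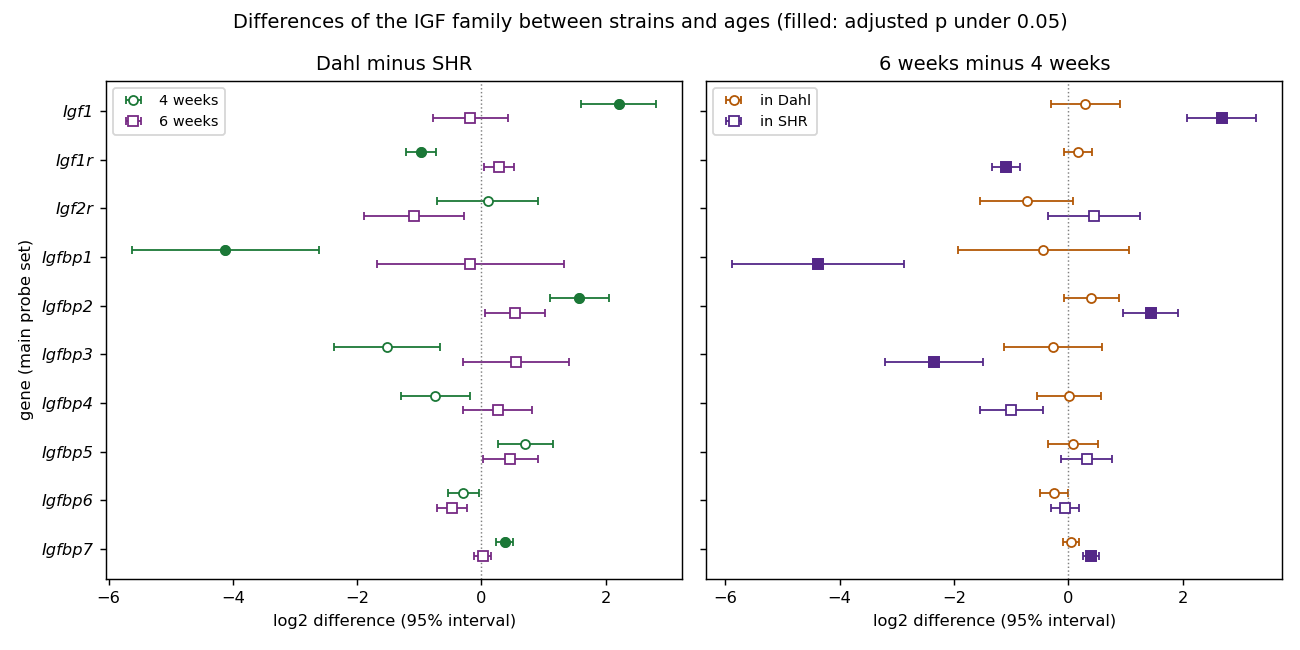
Log2 differences (horizontal axes, with 95% intervals from limma) of the 10 genes (vertical axis), Dahl minus SHR at 4 and 6 weeks on the left and 6 minus 4 weeks in each strain on the right. Filled symbols passed at an adjusted p under 0.05. The passed differences are those at 4 weeks and those with age in SHR, led by Igfbp1 at -4.12 and -4.38.

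The other genes of the pathway were read from 11 lists, over both ages unless stated. The median difference of all genes was -0.05 there and at 4 weeks. Since 13.2% of all genes were called higher and 21.2% lower over both ages, counts such as 2 of 9, 3 of 17 or 3 of 22 lie near the background and are no result about a list. Among the other ligands and partners, Igf2, Igfals, Ins1 and Ins2, 0 of 4 passed, and Igf2 read 2.80 to 3.02 in 7 rats and 3.94 in the other. In the growth hormone axis 2 of 9 were lower in Dahl and 0 higher (median -0.04). These were the growth hormone receptor Ghr (-1.41 ± 0.35, adjusted p = 0.0394) and the dim Socs1, an inhibitor of cytokine signaling (-0.25). Ghr read 8.49 and 8.81 in the young SHR rats and 5.27 to 7.48 in the others, with the lowest value in the Dahl rat of low tubule score.

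Of 13 measured proteases of the binding proteins and their inhibitors, 1 was higher and 3 lower in Dahl (median -0.03). Mmp2, a gelatinase, was higher by 1.83 ± 0.07 (adjusted p = 0.00173, limma) and Klk1, tissue kallikrein, lower with a difference of -1.93 ± 0.37 (adjusted p = 0.0257), while Pappa2 (-0.26) and Mmp7 (-0.10) were dim. Mmp2 read 3.34 and 3.41 in the young SHR rats, below the array medians, 5.47 and 5.29 in the older SHR rats, and 5.91 to 6.49 in Dahl, so that every Dahl rat was above every SHR rat. Stc1, an inhibitor of PAPPA, was called at 4 weeks (0.38) and in SHR with age (0.97). Of 9 relatives with an IGFBP domain, the matricellular genes Ccn1 (0.79 ± 0.20) and Ccn4 (1.45 ± 0.18) were higher and Igfbpl1 (-0.28), Ccn3 (-0.33) and Ccn6 (-0.14) lower, the last 3 at values under 3.5.

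All but 1 of the 5 receptors proposed for binding proteins were higher in Dahl, with a median of 0.64, where 13.2% of all genes were higher. They were the endocytic receptor Lrp1 (0.89 ± 0.18), the fibronectin receptor subunits Itga5 (0.64 ± 0.16) and Itgb1 (0.48 ± 0.07), and the endothelial Cd93 (0.87 ± 0.18), with adjusted p values of 0.0294, 0.0415, 0.0143 and 0.0281 (limma). Tmem219, a receptor proposed for IGFBP3, stayed between 7.10 and 7.20 in all rats. At 4 weeks 2 of the 5 were called higher, against 7.88% of all genes, and at 6 weeks 0. Mesangial and smooth muscle markers (7 of 9, median 0.82) and endothelial markers (4 of 8, median 0.44) were higher over both ages as well. The part of these cells in the receptor differences was not tested.

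Among 17 measured genes of the insulin receptor family and adaptors, 3 were higher and 3 lower in Dahl (median -0.01). The adaptor Shc1 (0.65 ± 0.06) and the phosphatases Ptpn1 (0.53 ± 0.13) and Ptpn11 (0.20 ± 0.06) were higher. Grb7, an adaptor of receptor kinases, was lower (-0.79 ± 0.05, adjusted p = 0.00422, limma), as were Insrr (-0.13) and Gab2 (-0.06), all 3 of them dim. Grb7 read 4.24 and 4.34 in the young SHR rats and 2.61 to 2.88 in the others, below the array medians, so that the sizes of its differences are uncertain. It differed by -1.45 at 4 weeks and -0.13 at 6 weeks, a change past the threshold (1.32 ± 0.10, adjusted p = 0.0298).

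In the list of PI3 kinase, Akt and mTOR, 3 of 22 measured genes were higher in Dahl, namely the lipid phosphatase Inppl1 (0.67 ± 0.12) and the kinases Akt1 (0.36 ± 0.08) and Akt2 (0.51 ± 0.11), and 1 was lower, the mTOR inhibitor Tsc1 (-0.29 ± 0.05), with a list median of 0.04. Of 7 measured genes of Ras and MAP kinase signaling, Nras (0.57 ± 0.11) and the ERK phosphatase Dusp6 (0.49 ± 0.10) were higher and 0 lower (median 0.25). Among 3 IGF2 mRNA-binding proteins only the dim Igf2bp3 passed (-0.34 ± 0.04). Of 11 endosomal and lysosomal partners of Igf2r, the urokinase receptor gene Plaur alone passed (1.89 ± 0.36, median of the list -0.03).

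FoxO factors are held out of the nucleus by insulin and IGF1 signaling through Akt. Of 20 measured FoxO genes and known targets, 5 were lower in Dahl at 4 weeks and 0 higher, with a list median of -0.45. Of all genes, 6.06% were lower at 4 weeks. The same 5 were lower over both ages, a count near the background of 21.2% there. Pdk4, the kinase that closes pyruvate dehydrogenase, read 10.59 and 10.55 in the young SHR rats and 7.39 to 8.29 in the others. It was the 1 gene of the list called with age in SHR (-2.73 ± 0.31, adjusted p = 0.0286, limma), and its list median there was -0.37. Klf15, a glucocorticoid-induced factor, read 8.89 to 9.84 in SHR and 7.50 to 8.33 in Dahl, without overlap (-1.57 ± 0.17, adjusted p = 0.00947). The factor Foxo3 (-0.59 ± 0.10), the mTOR inhibitor Ddit4 (-0.95 ± 0.16) and the transcriptional coregulator Cited2 (-0.57 ± 0.10) made up the rest. The targets Pck1, the gluconeogenic enzyme, with -1.66 ± 0.63 at 4 weeks, and Cdkn1a, a cell cycle inhibitor, with -1.26 ± 0.40, did not pass. The proximal tubule list, which also holds Pck1, had a median difference of -0.67 at 4 weeks, with 0 of 19 markers called. The part of tubule RNA in the differences of the FoxO list was not tested, and neither was FoxO activity.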

How the data were processed

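Glomerular RNA of 8 biological replicates, called rats here, was measured on Affymetrix Rat Genome 230 2.0 arrays. Per the labels and the value table, the authors deposited log2 values, after background correction, normalization and summary per probe set. RMA and GCRMA both stand in the submitters' processing notes. Versions, scan days and the method behind the values used are not stated there. The 2 treat dim probe sets differently, so low values are uncertain. After 57 controls were left out, 31042 probe sets were fitted with 4 group means in limma 3.58.1 (R 4.3.3, 4 residual and 0.921 prior degrees of freedom). A difference is called at a Benjamini-Hochberg adjusted p under 0.05 over all probe sets, and errors are standard errors. The percentages of all genes use the main probe set of 14217 genes. The fit was tested on simulated data. The number of arrays limits the precision.

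Members, gene lists and tests were chosen with earlier results of these data known, so their p values are no independent support. All members are named with every probe set. Of each list, up to 4 genes with the smallest p over both ages among those that passed are named, and every passed gene of a direction taken by at most 2. Stc1, Tmem219, Pck1, Cdkn1a, Cyp2e1, Scnn1a, Csf1r, Itgam, Cd3e and the unpassed Igf2 were named after their values were seen. Promoters are from RefSeq (GRCr8). The results were recomputed with a trend of variance on intensity and robust moderation, with quantile or median scaling, and on the brighter probe sets. They were also recomputed with a block for replicate number, without each rat in turn, on 1 age, and additively. Further settings were an unpaired t-test of the strains that ignores age, other probe set choices and a proximal tubule covariate.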

Additional observations from a re-analysis of the deposited data

Results flagged for a closer look

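The strain difference changed between 4 and 6 weeks past the threshold (interaction term, limma) for 5 of the probe sets and genes described. Of all genes, 0.26% passed with a positive and 0.45% with a negative change. For Igf1r the change at its main probe set was 1.26 (adjusted p = 0.047), from -0.98 at 4 weeks to 0.28 at 6 weeks. Its second probe set did not pass (adjusted p = 0.0997). Igf1 passed at 1388469_at, with a change of -2.31 (adjusted p = 0.0345) from 1.88 to -0.43, and not at its main probe set (adjusted p = 0.0836). The young SHR values of 1388469_at lay below the array medians. Mmp2 changed by -2.44 (adjusted p = 0.0131), from 3.05 to 0.61, and was higher in Dahl at both ages. Grb7 changed by 1.32 (adjusted p = 0.0298), from -1.45 to -0.13, and the dim Ccn3 by 0.53 (adjusted p = 0.045), from -0.60 to -0.07. In each of them the young SHR rats lay outside the range of the other 6 rats.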

How the results depend on the processing

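With 2 rats per group, single rats carried many calls. Of 834 member differences under alternatives, 680 kept their direction and side of the threshold, 117 kept the direction and lost the call, 21 gained one and 16 changed sign, none of which had been called. The number of members called, 7 over both ages, became 3 in the additive model. An unpaired t-test of all Dahl against all SHR rats, which ignores age, gave 2 unadjusted and 2 after adjustment. The reported fit gave 0 with the proximal tubule score as a covariate. Leaving out 1 rat gave 1 to 9. At 4 weeks the 5 called became 8 with an intensity trend and robust variance, 1 with arrays of that age only, and 1 to 6 without 1 rat. At 6 weeks the 0 called became 2 with the trend, 1 when any probe set counted, and 0 to 1 without 1 rat. In Dahl with age the 0 called became 0 to 1, and in SHR with age the 6 became 0 to 6. The 1 called change of the strain difference became 0 with the trend, 2 among brighter probe sets, 2 when any probe set counted, and 0 to 2 without 1 rat. The sample titles do not say that a replicate number marks a batch. Deviations of same-numbered rats correlated at -0.23 to 0.24, which with 2 rats per group cannot settle whether it does. With the replicate block 1 member was called at 6 weeks and 3 in SHR with age.

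The changes of sign were as follows. Dahl minus SHR at 6 weeks for Igfbp7 became -0.014 with median centring. With the tubule score, Igf2r became 0.074, Igfbp3 0.029 and Igfbp4 0.029 over both ages. Without 1 rat, Dahl minus SHR of Igf2r at 4 weeks ran from -0.0095 to 0.20, and at 6 weeks that of Igfbp1 ran from -1.004 to 0.65 and that of Igfbp7 from -0.042 to 0.079. In Dahl with age Igfbp1 ran from -1.26 to 0.39, Igfbp3 from -0.72 to 0.18, Igfbp4 from -0.22 to 0.24, Igfbp5 from -0.12 to 0.30 and Igfbp7 from -0.017 to 0.10, and in SHR with age Igfbp6 from -0.18 to 0.052. The cause was not tested.

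The number of genes called among all 14217 ranged from 170 to 6868 over both ages (4900 in the fit reported). The count of 170 came with the proximal tubule score as a covariate. The range was 422 to 4332 at 4 weeks (1982) and 0 to 3282 at 6 weeks (460). With age it was 0 to 612 in Dahl (14) and 41 to 771 in SHR (486), and for the interaction 3 to 295 (101).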
